A study of Mus musculus with 22 samples.

Results

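Cannabidiol was compared with vehicle in the brains of exposed mice that had been given lipopolysaccharide (LPS), across all genes of the count table. The comparison sets the 4 GWCBD30LPS libraries against the 4 GWVehLPS libraries, chosen by their labels, so 8 of the 22 libraries of the series enter it directly. The series takes its question from Gulf War illness: whether an early chemical exposure primes the immune cells of the old brain, and whether cannabidiol reverses that state. Each library is the whole brain of 1 male C57BL/6J mouse, and all 8 mice were exposed from 10 weeks of age to 0.7 mg/kg pyridostigmine bromide, a carbamate inhibitor of acetylcholinesterase, with 200 mg/kg permethrin, a pyrethroid insecticide, injected once a day for 10 days. They were kept until 17.5 months of age. GWCBD30LPS mice then had 30 mg/kg cannabidiol in Tween 80 and PBS daily for 28 days and every 2 days for 2 further weeks, and a last injection of 0.33 mg/kg LPS of Escherichia coli on the next morning. GWVehLPS mice had the vehicle of cannabidiol on the same days and the same dose of LPS. Brains were taken 24 h after LPS in both groups. GWCBD30 and GWVeh (4 mice each), exposed and treated in the same way but given PBS in place of LPS, serve below as the same contrast without LPS. CtrlVehLPS and CtrlVeh (3 mice each), which had neither exposure nor cannabidiol, serve to choose genes that differ with LPS. Cannabidiol without the exposure was not analysed here, and every sample is a whole brain, so regional and cell-type changes enter only as averages.

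LPS is the outer-membrane lipid of Gram-negative bacteria and is sensed by Toll-like receptor 4 with CD14 and MD-2. After a systemic dose, brain endothelial cells display adhesion molecules such as selectins and ICAM-1, astrocytes and endothelium release acute-phase proteins, interferon-stimulated genes are switched on, and microglia, the resident macrophages of the brain, raise complement and Fc receptor genes. Cannabidiol is a plant cannabinoid with little affinity for the CB1 and CB2 receptors, and it acts on several other receptors and channels.

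The brains of GWCBD30LPS mice held less RNA of microglial, complement, endothelial and acute-phase genes than those of GWVehLPS mice. Of 20026 genes tested, 45 were lower in GWCBD30LPS (0.225% of all genes) and 3 were higher (0.015%) at an adjusted p under 0.05 (edgeR quasi-likelihood test, Benjamini-Hochberg adjustment). The C1q chains, the Fc gamma receptors, the endothelial adhesion genes Icam1 and Selp and the acute-phase gene Lcn2 were among the lower ones. Sele and Saa3 were called lower too, but entered the test only through GWVehLPS, the group in which they were high. Rbm3 and Mir22hg were among the higher ones. The median log2 fold change of the 45 lower genes was -0.79 and that of all genes tested 0.000438. In 47 of the 48 genes the GWCBD30LPS libraries did not overlap the GWVehLPS libraries. The genes were chosen for a difference between these same libraries, so this separation and the median of the 45 only describe the calls. Both values include Sele and Saa3. The 48 make 0.24% of the genes tested, and 1422 genes (7.1%) had an unadjusted p under 0.05. Over all genes, 500 (2.5%) had every GWCBD30LPS library below every GWVehLPS library and 356 (1.78%) had every one above. Of the 45 lower genes, 35 belonged to at least 1 of the 52 gene lists used here and 10 to none. The lists were chosen with earlier results of these data known. The share of all genes tested that the lists hold was not counted, so the 35 are a description only. The calls depended on single libraries: the count of lower genes was 23 without GWCBD30LPS replicate 1, 22 without GWCBD30LPS replicate 4 and 26 without GWVehLPS replicate 1. The count of higher genes was between 0 (without GWCBD30LPS replicate 4) and 9 (without GWVehLPS replicate 2), and was 1 without GWCBD30LPS replicate 1 or 2 or GWVehLPS replicate 4.

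**Figure D1:**
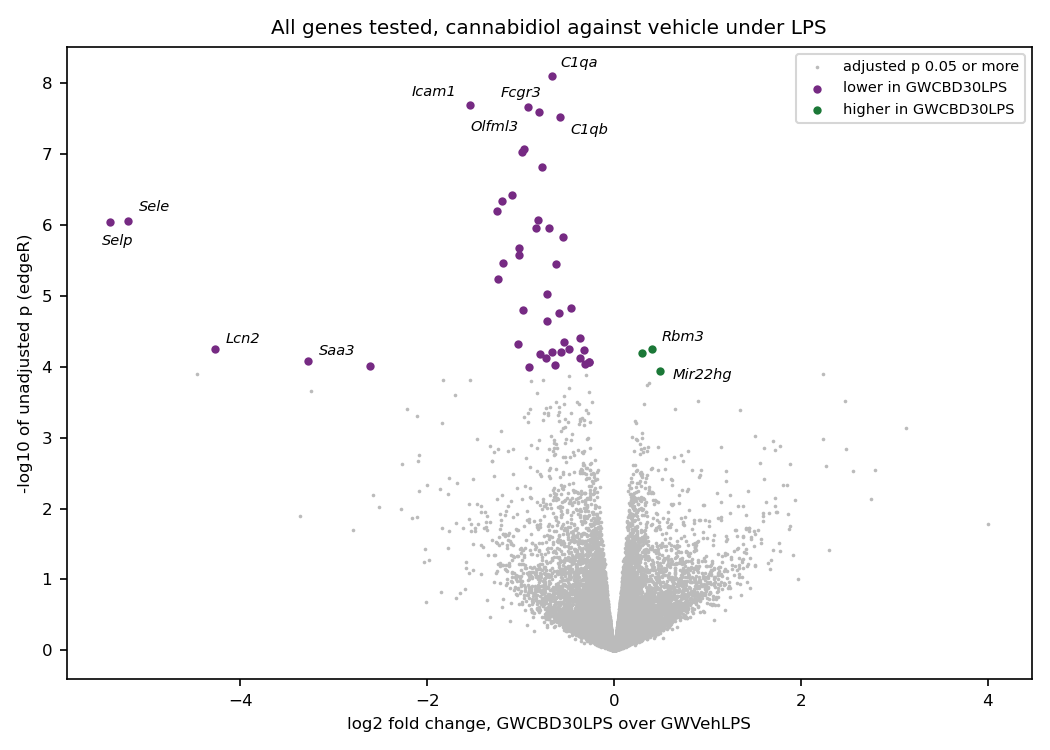
Log2 fold change of GWCBD30LPS over GWVehLPS (x axis) against -log10 of the unadjusted p from edgeR (y axis) for the 20026 genes tested, 1 point a gene. The 45 lower genes (purple) extend to C1qa at the top and to Selp and Sele on the left, and the 3 higher genes (green) include Rbm3 at 0.40 and Mir22hg at 0.49.

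Each deposited library is a column of read counts per gene. The libraries held 31.2, 20.5, 26.6 and 18.2 M counts in GWCBD30LPS, and 28.8, 26.2, 21.4 and 18.8 M counts in GWVehLPS. At that depth 3 counts in a library, taken as the floor of detection, stand for 0.0975 to 0.167 counts per M counts of library size (CPM). Markers of brain tissue were present: the synaptic gene Snap25 had 2161 to 2358 CPM in GWCBD30LPS and 2011 to 2233 CPM in GWVehLPS, and the myelin gene Mbp had 2926 to 3645 CPM in GWCBD30LPS and 2618 to 3809 CPM in GWVehLPS. Mitochondrially encoded genes took 4.33% ± 0.206 of the counts in GWCBD30LPS and 4.63% ± 0.299 in GWVehLPS (SD, n = 4 each, two-sided exact permutation p = 0.171, where 0.0286 is the smallest p possible). Some libraries stood apart. The mean log2 CPM of 16 olfactory bulb neuron genes was 2.69 in GWCBD30LPS replicate 4 and 2.56 and 2.98 in GWVehLPS replicates 2 and 3, against 1.45 to 1.66 in the other 5 libraries. GWVehLPS replicate 2 lay at -55.3 on the first principal component (20.2% of the variance), with the other 7 libraries between 0.93 and 20.3. Without these 3 libraries, which leaves 3 GWCBD30LPS against 2 GWVehLPS mice, 33 genes were lower and 3 higher, and 22 of the 33 were among the 45 while none of the 3 was among the original 3.

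Part of the microglial identity genes were lower in GWCBD30LPS, with the C1q chains in front. Of 22 genes listed for resting (homeostatic) microglia, 7 were lower, where 0.225% of all genes were, none was higher and 15 did not pass. The list median log2 fold change was -0.32, with a value below 0 in 20, where 49.8% of all genes were below 0. In control mice 14 of the 22 were higher with LPS (list median 0.67), the 7 among them, so these 7 are not genes of the resting state alone. C1qa, C1qb and C1qc encode the chains of C1q, the recognition molecule of the classical complement pathway, which brain microglia produce. C1qa had 43.0, 46.5, 45.1 and 39.6 CPM in GWCBD30LPS, against 70.6, 73.9, 67.1 and 64.4 CPM in GWVehLPS. In GWVeh, without LPS, it had 36.2 ± 4.25 CPM (SD, n = 4). The highest GWCBD30LPS library lay well under the lowest GWVehLPS library, and the log2 fold change was -0.66 ± 0.087 (SE, adjusted p = 0.000121, edgeR). C1qb had 46.2, 51.7, 49.4 and 44.0 CPM in GWCBD30LPS, against 72.6, 75.6, 71.0 and 66.7 CPM in GWVehLPS (log2 fold change -0.58 ± 0.081, adjusted p = 0.000121, edgeR). C1qc followed at 31.8 ± 4.01 CPM in GWCBD30LPS and 46.6 ± 4.45 CPM in GWVehLPS (SD, n = 4 each; -0.55 ± 0.093, adjusted p = 0.00174, edgeR). All 3 genes are neighbours on the minus strand of chromosome 4 (GRCm38, C1qb at chr4:136880129-136886187, C1qc at chr4:136889804-136893065 and C1qa at chr4:136895917-136898803).

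Olfml3, a secreted protein gene that marks microglia, had 18.1, 16.6, 16.7 and 12.9 CPM in GWCBD30LPS, against 27.8, 28.7, 33.1 and 23.3 CPM in GWVehLPS. Its groups did not overlap, and the log2 fold change was -0.81 ± 0.11 (SE, adjusted p = 0.000121, edgeR). Ly86, which encodes MD-1, the partner of the Toll-like receptor homologue CD180, had 6.15, 8.45, 6.91 and 6.72 CPM in GWCBD30LPS, against 13.7, 15.3, 15.9 and 9.93 CPM in GWVehLPS. GWVehLPS replicate 4 was the lowest of its group and still above every GWCBD30LPS library (-0.97 ± 0.14, adjusted p = 0.000267, edgeR). The microglial Fc receptor-like gene Fcrls (-0.72 ± 0.14, adjusted p = 0.0083, edgeR) and the microglial surface protein gene Tmem119 (-0.37 ± 0.081, adjusted p = 0.0375, edgeR) completed the 7. Tmem119 was the smallest of these changes, at 19.5 ± 1.44 CPM in GWCBD30LPS and 25.1 ± 2.10 CPM in GWVehLPS (SD, n = 4 each). Other genes of the same cells did not pass: the fractalkine receptor Cx3cr1 had a log2 fold change of -0.33, the survival receptor Csf1r -0.32, Aif1 -0.24 ± 0.23, the lipid receptor Trem2 -0.05 ± 0.12 and the purinergic receptor P2ry12 0.06. In bulk RNA, fewer microglia and less RNA per microglial cell cannot be told apart. Without GWCBD30LPS replicate 1 or 4 the list had 5 lower members, Fcrls (adjusted p = 0.0839 and 0.0615) and Tmem119 (0.146 and 0.226, edgeR) being lost, and without the 3 libraries with raised bulb genes it had 2, C1qa (-0.59, adjusted p = 0.0137) and C1qb (-0.51, adjusted p = 0.0267).

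**Figure D2:**
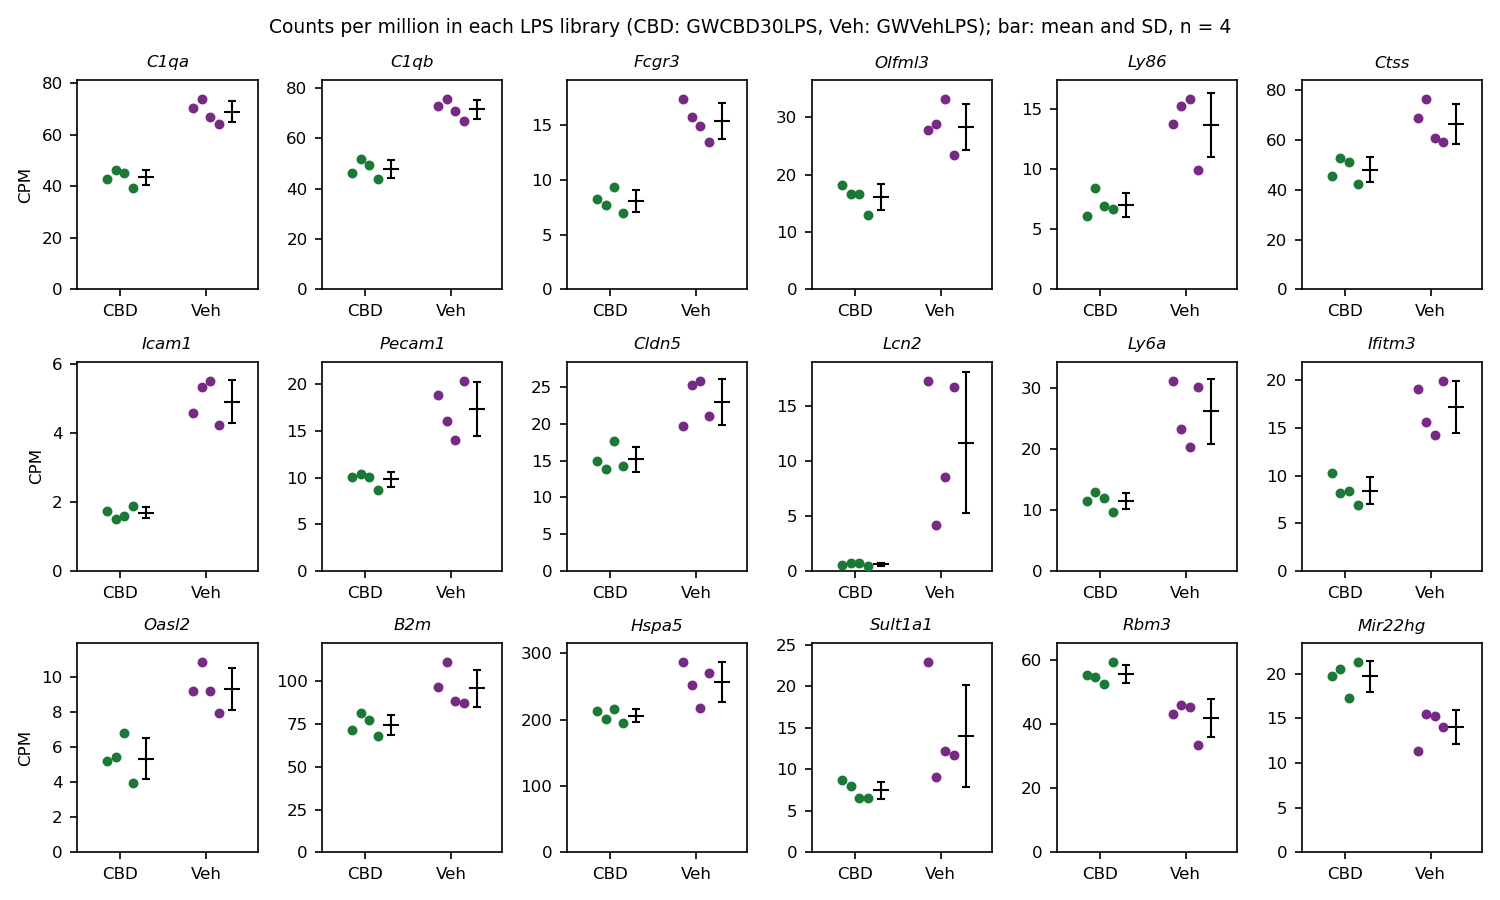
CPM of 18 genes that passed in each of the 8 LPS libraries (y axes start at 0), GWCBD30LPS in green on the left and GWVehLPS in purple on the right of each panel, with the mean and SD (n = 4). The green points lie below the purple points in the first 16 panels and above them for Rbm3 and Mir22hg.

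Fc gamma receptors bind the constant part of IgG antibodies on myeloid cells, and 4 of them fell. Fcgr3 had 8.19, 7.72, 9.36 and 7.0 CPM in GWCBD30LPS, against 17.3, 15.8, 14.9 and 13.4 CPM in GWVehLPS. Every GWVehLPS library exceeded every GWCBD30LPS library (log2 fold change -0.92 ± 0.13 SE, adjusted p = 0.000121, edgeR). Fcgr2b, the inhibitory member, had 2.83, 3.76, 3.90 and 3.33 CPM in GWCBD30LPS, against 8.60, 7.52, 6.39 and 6.83 CPM in GWVehLPS (-1.09 ± 0.17, adjusted p = 0.000825, edgeR). The high-affinity receptor Fcgr1 had 3.02, 3.86, 3.59 and 2.06 CPM in GWCBD30LPS, against 7.24, 5.95, 6.25 and 5.34 CPM in GWVehLPS (-0.98 ± 0.19, adjusted p = 0.0125, edgeR). Both genes were without overlap between the groups. Fcgr4, an activating receptor, was near the floor in GWCBD30LPS, with 3, 4, 9 and 0 counts, against 44, 21, 18 and 18 counts in GWVehLPS. Summed over the libraries, its CPM level was 6.37-fold higher in GWVehLPS (95% exact counting interval, counting error only, 3.74 to 11.6, adjusted p = 0.0422, edgeR). Fcgr2b (chr1:170958617-170976547), Fcgr4 (chr1:171018920-171029761) and Fcgr3 (chr1:171051174-171064935) lie in 1 cluster on chromosome 1 (GRCm38), and because these genes are similar in sequence, reads could be shared among them in counting.

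The Fc receptors belong to the list of activated and disease-associated microglia. In it 6 of 28 genes were lower, against 0.225% of all genes, none was higher and the median was -0.32. The other 2 were the lysosomal protease Ctss and the class I light chain B2m. Ctss had 45.5, 53.0, 51.4 and 42.5 CPM in GWCBD30LPS, against 68.9, 76.5, 60.8 and 59.0 CPM in GWVehLPS (-0.46 ± 0.091 SE, adjusted p = 0.0125, edgeR). B2m had 71.5, 81.3, 77.2 and 67.7 CPM in GWCBD30LPS, against 96.2, 111, 88.3 and 87.4 CPM in GWVehLPS (-0.36 ± 0.077, adjusted p = 0.0284, edgeR). Both were higher in all GWVehLPS libraries. The other 22 genes of this list did not pass. Of all 28, 23 had a value below 0, against 49.8% of all genes. In 8 every GWCBD30LPS library lay below every GWVehLPS library, against 2.5% of all genes. Without LPS, where no gene passed, 18 of the 28 were below 0, as were 9988 of all 20026 genes. Among 24 cathepsin and lysosome genes Ctss was the only one called, with a median of -0.18 and a value below 0 in 23. Ctsh (-0.53 ± 0.13, adjusted p = 0.0818) and Ctsc (-0.62 ± 0.15, adjusted p = 0.0918, edgeR) came next. Without GWCBD30LPS replicate 1, without GWCBD30LPS replicate 4 or without GWVehLPS replicate 1, 2 of the 28 passed, Fcgr3 and Fcgr2b, and without the 3 libraries with raised bulb genes the list had 2 and its median was -0.09.

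In the complement list, which holds the C1q chains too, 4 of 19 genes were lower, against 0.225% of all genes. None was higher, and the median was -0.39. The central component C3 had 6.51 ± 1.86 CPM in GWCBD30LPS and 8.52 ± 2.33 CPM in GWVehLPS (SD, n = 4 each; -0.39 ± 0.36, adjusted p = 0.91, edgeR), and C4b had 96.5 ± 12.1 CPM in GWCBD30LPS and 121 ± 18.6 CPM in GWVehLPS (-0.33 ± 0.19, adjusted p = 0.795, edgeR). The receptors C5ar1 (-1.24) and C3ar1 (-0.62) and the integrin chains Itgb2 (-0.60) and Itgam (-0.52) of complement receptor 3 did not pass.

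Endothelial adhesion and acute-phase genes held the widest differences among the called genes, with log2 fold changes of -5.39 for Selp and -4.27 for Lcn2. In this list 6 of 24 genes were lower, against 0.225% of all genes. Of the 6, 2, Sele and Saa3, entered the test only through GWVehLPS. None was higher. With these 2 included, the median was -0.70 and 22 values were below 0, where 49.8% of all genes were below 0. ICAM-1, E-selectin and P-selectin are displayed by inflamed endothelium and hold leukocytes to the vessel wall. Icam1 had 1.72, 1.51, 1.6 and 1.89 CPM in GWCBD30LPS, against 4.58, 5.32, 5.52 and 4.22 CPM in GWVehLPS. The lowest GWVehLPS library lay far above the highest GWCBD30LPS library, and the log2 fold change was -1.54 ± 0.21 (SE, adjusted p = 0.000121, edgeR). Sele had 2, 0, 0 and 0 counts in GWCBD30LPS, against 9, 36, 17 and 25 counts in GWVehLPS. Over the summed libraries its level was 43.9-fold higher in GWVehLPS, with a 95% counting interval of 11.8 to 368.4 (adjusted p = 0.00129, edgeR). Selp had 0, 1, 0 and 0 counts in GWCBD30LPS, against 16, 14, 13 and 19 counts in GWVehLPS. Its ratio was 62.6 in favour of GWVehLPS with an interval of 10.8 to 2512 (adjusted p = 0.00129, edgeR). All GWCBD30LPS libraries were under the floor of 3 counts for both selectins. The low-count filter asked for 0.464 CPM in at least 3 libraries. Sele reached this in 3 GWVehLPS libraries and in no library of another group, and Saa3 in 4 GWVehLPS libraries and in 1 of the others. Both therefore entered the test only through the group in which they were high, so that 2 of the 6 calls of this list add nothing to its count, and no other called gene entered through 1 group alone. Sele (chr1:164048234-164057677) and Selp (chr1:164115264-164150026) are neighbours on the plus strand of chromosome 1 (GRCm38).

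Lcn2, the iron-chelating acute-phase protein lipocalin 2, had 0.520, 0.684, 0.726 and 0.445 CPM in GWCBD30LPS, against 17.3, 4.13, 8.55 and 16.7 CPM in GWVehLPS. The GWVehLPS libraries varied widely among themselves, and all stood above every GWCBD30LPS library (log2 fold change -4.27 ± 0.79 SE, adjusted p = 0.0339, edgeR). Saa3, a serum amyloid A gene, had 2, 0, 11 and 1 counts in GWCBD30LPS, against 82, 15, 14 and 30 counts in GWVehLPS. Its summed level was 10.2-fold higher in GWVehLPS (95% counting interval 5.86 to 19.1, adjusted p = 0.0395, edgeR), with GWCBD30LPS replicate 3 high in its group. The interleukin 4 receptor chain Il4ra had 8.77 ± 1.18 CPM in GWCBD30LPS and 13.1 ± 1.95 CPM in GWVehLPS (SD, n = 4 each; -0.57 ± 0.12 SE, adjusted p = 0.0344, edgeR). The calls of Lcn2, Saa3 and Il4ra each depended on single libraries: Lcn2 was lost without any of GWCBD30LPS replicates 1 to 4 or GWVehLPS replicates 1 and 4 (adjusted p 0.0729 to 0.152), Saa3 without 5 of the 8 libraries (0.0833 to 0.242) and Il4ra without 5 of the 8 (0.113 to 0.215). Vcam1, the other main adhesion molecule of inflamed vessels, had a log2 fold change of -0.12 and did not pass, and neither did Lrg1 (-1.71) or Ch25h (-1.38). Without GWVehLPS replicate 4 the list had 2 lower members, Icam1 and Selp, and Sele was too low to be tested without GWVehLPS replicate 2, 3 or 4.

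Endothelial identity genes were lower in part. Of 23, 4 fell, against 0.225% of all genes, none was higher and the median was -0.18. Pecam1, the platelet endothelial adhesion molecule CD31, had 10.1, 10.4, 10.1 and 8.67 CPM in GWCBD30LPS, against 18.9, 16.1, 14 and 20.4 CPM in GWVehLPS (-0.82 ± 0.14 SE, adjusted p = 0.00129, edgeR). Ly6c1, a surface protein of mouse brain endothelium, had 13.8, 15.3, 12.9 and 10.1 CPM in GWCBD30LPS, against 26.7, 23.9, 21.6 and 31.3 CPM in GWVehLPS (-0.99 ± 0.14, adjusted p = 0.000267, edgeR). Ly6a, which encodes the surface protein Sca-1, had 11.4, 12.9, 12 and 9.67 CPM in GWCBD30LPS, against 31.3, 23.2, 20.3 and 30.2 CPM in GWVehLPS (-1.19 ± 0.19, adjusted p = 0.00337, edgeR). In each of these genes GWCBD30LPS replicate 4 was the lowest library and the groups did not overlap. Claudin 5, the tight-junction protein encoded by Cldn5, had 15, 13.8, 17.6 and 14.3 CPM in GWCBD30LPS, against 19.7, 25.3, 25.9 and 21 CPM in GWVehLPS (-0.59 ± 0.12, adjusted p = 0.0132, edgeR). Cldn5 was the least stable of the 4, with an adjusted p of 0.0623 to 0.0988 without GWCBD30LPS replicate 1, 2 or 4 or GWVehLPS replicate 3, and 0.666 without the 3 libraries with raised bulb genes. The other 19 identity genes did not pass. Of all 23, 20 had a value below 0 and 7 had every GWCBD30LPS library below every GWVehLPS library, against 2.5% of all genes. Pericyte and smooth muscle genes had none of 13 called and a median of -0.01. Ly6e (chr15:74955051-74959905), Ly6a (chr15:74994877-74998031) and Ly6c1 (chr15:75044018-75048830) lie in the Ly6 cluster on chromosome 15 (GRCm38), whose members are alike in sequence, and Ly6e was called too, at 143 ± 1.49 CPM in GWCBD30LPS and 173 ± 11.7 CPM in GWVehLPS (SD, n = 4 each; -0.27 ± 0.060, adjusted p = 0.0395, edgeR).

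Further genes of vessels and of other cells were called. Cd93, a transmembrane receptor of endothelial and myeloid cells, had 3.45, 3.76, 3.51 and 2.28 CPM in GWCBD30LPS, against 10.7, 4.69, 7.82 and 7.95 CPM in GWVehLPS (-1.25 ± 0.20 SE, adjusted p = 0.00115, edgeR). Adgrl4, the endothelial adhesion G protein-coupled receptor ELTD1, had 7.19, 8.65, 7.60 and 7.89 CPM in GWCBD30LPS, against 11, 15.7, 12.2 and 14.7 CPM in GWVehLPS (-0.78 ± 0.12, adjusted p = 0.000375, edgeR). Pglyrp1, a peptidoglycan recognition protein, had 4.10, 3.66, 2.18 and 3.06 CPM in GWCBD30LPS, against 8.43, 6.02, 6.76 and 8.75 CPM in GWVehLPS (-1.20 ± 0.19, adjusted p = 0.000926, edgeR). No library of 1 group reached the range of the other in these genes. Igfbp7, an insulin-like growth factor binding protein of vessels that also stands in a list of cell cycle arrest and senescence genes, had 12.3, 9.58, 10.5 and 11.1 CPM in GWCBD30LPS, against 21.9, 16.9, 18.6 and 20.1 CPM in GWVehLPS (-0.83 ± 0.14, adjusted p = 0.00137, edgeR). It was the only one of 16 genes called in that list (median -0.05), and Cdkn1a, the cell cycle inhibitor p21, did not pass (-0.34 ± 0.11, adjusted p = 0.274, edgeR). Angptl4, a secreted inhibitor of lipoprotein lipase, was also lower (-1.24 ± 0.23, adjusted p = 0.00525, edgeR). Further lower genes in no list were Anxa2, a calcium-dependent membrane-binding protein (-0.72), Lcp1, the leukocyte actin bundler L-plastin (-0.54), Ifi30, a lysosomal thiol reductase for antigen processing (-1.03), Tspo, the translocator protein used as an imaging target of glial activation (-0.73), and Lgals9, galectin 9 (-0.63).

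Interferon-stimulated genes lay lower as a list with few calls. Of 50, 2 were lower, against 0.225% of all genes, and none was higher. The median was -0.40 and 48 values were below 0, where 49.8% of all genes were below 0. Ifitm3, a membrane protein that blocks virus entry, had 10.3, 8.16, 8.33 and 6.89 CPM in GWCBD30LPS, against 19.0, 15.6, 14.3 and 19.96 CPM in GWVehLPS. All GWVehLPS libraries were above the GWCBD30LPS libraries (-1.02 ± 0.17 SE, adjusted p = 0.00233, edgeR). Oasl2, a ubiquitin-like relative of the antiviral oligoadenylate synthetases, had 5.23, 5.42, 6.84 and 3.95 CPM in GWCBD30LPS, against 9.23, 10.9, 9.24 and 7.95 CPM in GWVehLPS (-0.79 ± 0.17, adjusted p = 0.0352, edgeR). Its call was lost without 6 of the 8 libraries (adjusted p for Oasl2 0.0688 to 0.238). Irf7, the transcription factor that amplifies type I interferon, had 2.67, 3.08, 2.71 and 1.78 CPM in GWCBD30LPS, against 8.88, 4.25, 4.60 and 4.75 CPM in GWVehLPS. Its groups did not overlap, and it did not pass (-1.13 ± 0.32, adjusted p = 0.199, edgeR). Zbp1, a sensor of Z-form nucleic acids, had 21 counts in GWCBD30LPS and 100 counts in GWVehLPS over 4 libraries each (-2.22 ± 0.56, adjusted p = 0.102, edgeR). In the list of 17 MHC and antigen presentation genes, B2m alone was called, the median was -0.24, and the class I gene H2-K1 (-0.54 ± 0.13, adjusted p = 0.0928) and the immunoproteasome subunit Psmb8 (-0.69 ± 0.22, adjusted p = 0.299, edgeR) did not pass.

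Cytokine, chemokine and LPS receptor genes gave no call. Of 33 genes for cytokines, chemokines and targets of NF-kB, 20 reached the level needed for a test, none passed in either direction, and the median was -0.14. Il1b, Tnf and Ccl2 were among the 13 too low to test. The chemokine Ccl12 had 0.358, 0.635, 0.153 and 0.111 CPM in GWCBD30LPS, against 1.29, 0.748, 1.01 and 1.55 CPM in GWVehLPS, without overlap (-1.84 ± 0.49 SE, adjusted p = 0.12, edgeR). Cxcl10, an interferon-induced chemokine, was likewise without overlap at 0.539 ± 0.125 CPM in GWCBD30LPS and 1.19 ± 0.482 CPM in GWVehLPS (SD, n = 4 each; -1.11 ± 0.39, adjusted p = 0.401, edgeR). The NF-kB inhibitor Nfkbia had the same mean in both groups, 13.8 ± 1.78 CPM in GWCBD30LPS and 13.8 ± 1.87 CPM in GWVehLPS. Of 21 genes for LPS sensing and its first signalling steps none passed, with a median of -0.06, and Tlr4 (-0.19 ± 0.27, adjusted p = 0.957) and Cd14 (-0.29 ± 0.21, adjusted p = 0.866, edgeR) did not pass.

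**Figure D3:**
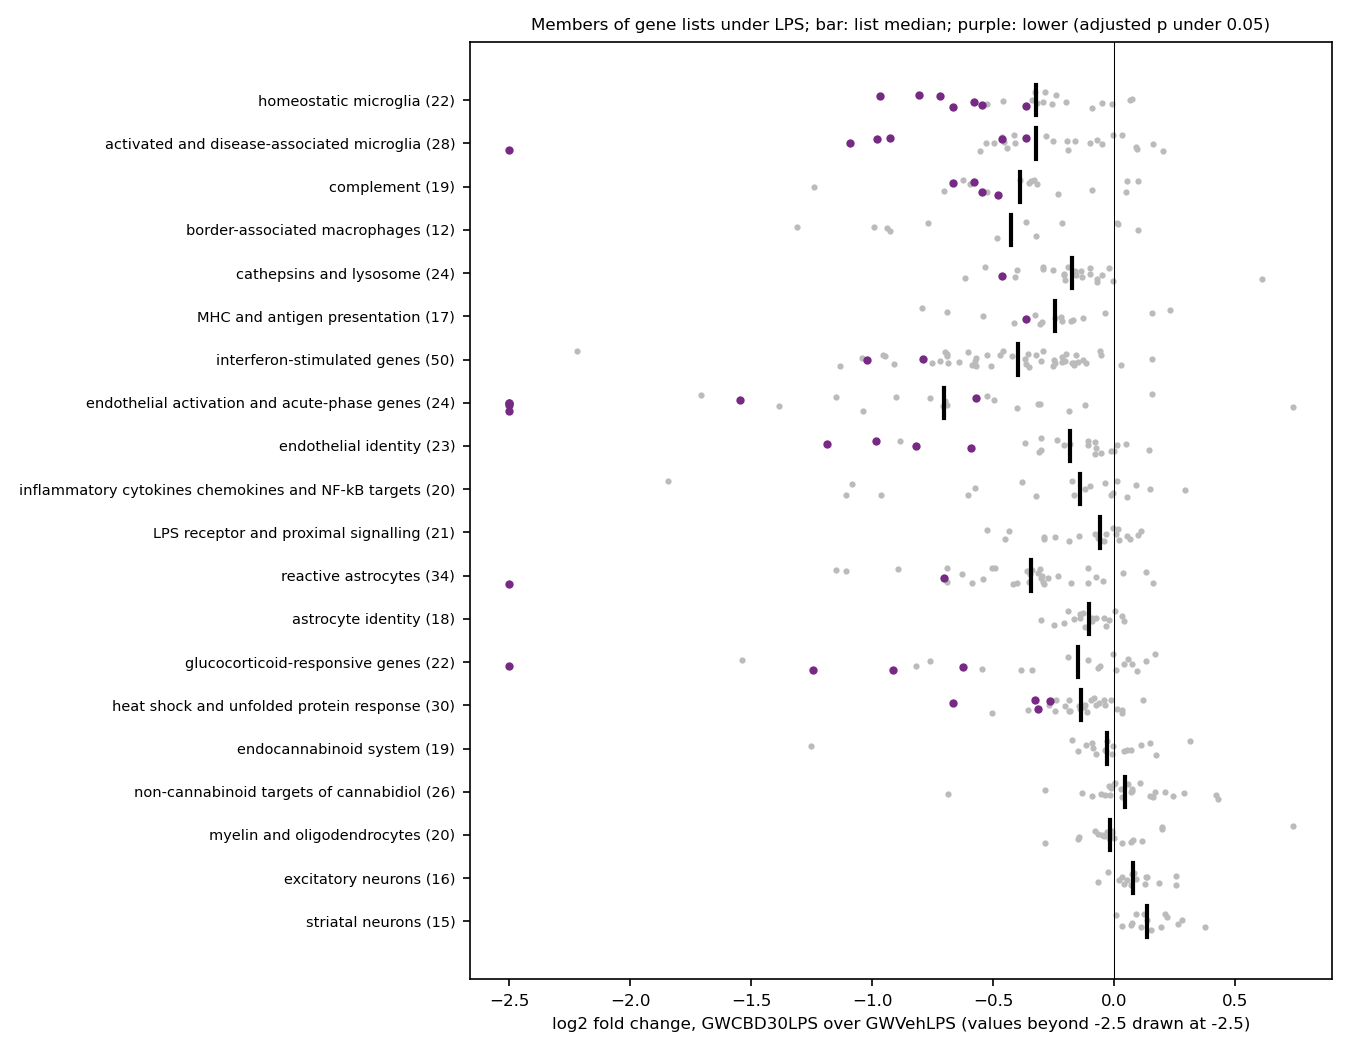
Log2 fold change of GWCBD30LPS over GWVehLPS (x axis, values beyond -2.5 drawn at -2.5) for each tested member of 20 gene lists, with the number of members in parentheses. Black bars are list medians, from -0.70 for endothelial activation and acute-phase genes to 0.14 for striatal neurons, and purple points passed as lower.

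Reactive astrocyte genes had 2 of 34 called, both lower, against 0.225% of all genes, with a median of -0.34. They were Lcn2 and Cp, which encodes the copper-carrying ferroxidase ceruloplasmin. Cp had 10.4, 12.8, 11.1 and 10.1 CPM in GWCBD30LPS, against 19.1, 18.1, 16.2 and 18.7 CPM in GWVehLPS, a gap wider than either group's spread (-0.70 ± 0.12 SE, adjusted p = 0.00137, edgeR). The intermediate filament Gfap had 337 ± 47.0 CPM in GWCBD30LPS and 396 ± 79.3 CPM in GWVehLPS (SD, n = 4 each; -0.23 ± 0.16, adjusted p = 0.86, edgeR), and the acute-phase protease inhibitor Serpina3n did not pass (-0.54 ± 0.17, adjusted p = 0.364). Astrocyte identity genes had none of 18 called and a median of -0.10. Myelin and oligodendrocyte genes had none of 20 called and a median of -0.02, with Mbp at -0.00 ± 0.13. Excitatory neuron genes had none of 16 called and a median of 0.08, and striatal neuron genes none of 15 and a median of 0.14, all 15 above 0, led by the signalling regulator Rgs9 (0.38 ± 0.088, adjusted p = 0.0585, edgeR).

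Genes that respond to glucocorticoids, the stress hormones that LPS also raises, were lower at 4 of 22 members (median -0.15), against 0.225% of all genes. Fam107a, an actin-binding stress protein expressed in astrocytes, had 347, 393, 288 and 329 CPM in GWCBD30LPS, against 571, 484, 462 and 572 CPM in GWVehLPS (-0.62 ± 0.10 SE, adjusted p = 0.00337, edgeR), with no overlap. Sult1a1, a phenol sulfotransferase, had 8.68, 8.01, 6.57 and 6.61 CPM in GWCBD30LPS, against 22.9, 9.14, 12.3 and 11.8 CPM in GWVehLPS (-0.91 ± 0.20, adjusted p = 0.0431, edgeR). GWVehLPS replicate 1 was far above the others of its group, and without it the adjusted p of Sult1a1 was 0.215. Angptl4 and Lcn2 were the other 2. The receptor co-chaperone Fkbp5 (-0.11 ± 0.092, adjusted p = 0.892) and the glucocorticoid-induced leucine zipper Tsc22d3 (-0.06 ± 0.063, adjusted p = 0.932, edgeR), both common readouts of receptor activity, did not pass. Plin4, a lipid droplet coat protein, had 4.91, 5.72, 4.39 and 3.95 CPM in GWCBD30LPS, against 23.1, 6.18, 8.60 and 17.2 CPM in GWVehLPS, and missed the threshold (-1.54 ± 0.32, adjusted p = 0.0562, edgeR).

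Chaperones of the endoplasmic reticulum were lower by small amounts. Of 30 heat shock and unfolded protein response genes 4 were lower, against 0.225% of all genes, and none was higher. The median was -0.14 with 26 values below 0, where 49.8% of all genes were below 0. Hspa5, the chaperone BiP, had 213, 201, 216 and 195 CPM in GWCBD30LPS, against 287, 252, 217 and 271 CPM in GWVehLPS (-0.32 ± 0.071 SE, adjusted p = 0.0409, edgeR). GWCBD30LPS replicate 3 lay just under GWVehLPS replicate 3, so the groups nearly met. Calreticulin, encoded by Calr, had 260.2, 240.6, 257 and 252 CPM in GWCBD30LPS, against 309.8, 295, 272 and 337 CPM in GWVehLPS (-0.26 ± 0.059, adjusted p = 0.0395, edgeR). The disulfide isomerase Pdia4 (-0.33 ± 0.071, adjusted p = 0.0339) and Sdf2l1 (-0.66 ± 0.14, adjusted p = 0.0344, edgeR), a cofactor of BiP, were the other 2. The cytosolic heat shock genes Hspa1a (0.01) and Hsp90aa1 (-0.06) did not pass. None of the 4 passed without GWCBD30LPS replicate 1, 2 or 4 or GWVehLPS replicate 1 or 4. In mice without LPS, where no gene passed, 23 of the 30 were also below 0 (median -0.06). There Calr had a log2 fold change of -0.17, Hspa5 -0.14, Pdia4 -0.08 and Sdf2l1 -0.06. For none of the 4 did the difference with and without LPS pass (adjusted p 0.713 to 0.936, edgeR).

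Among all genes tested, 3 rose. Rbm3, a cold-inducible RNA-binding protein, had 55.4, 54.8, 52.5 and 59.4 CPM in GWCBD30LPS, against 43.3, 45.9, 45.3 and 33.4 CPM in GWVehLPS (0.40 ± 0.087 SE, adjusted p = 0.0339, edgeR). GWVehLPS replicate 4 was the lowest, and without it the adjusted p of Rbm3 was 0.151. Its relative Cirbp pointed the same way without overlap between the groups and did not pass (0.28 ± 0.088, adjusted p = 0.282, edgeR). Mir22hg, the host transcript of miR-22, had 19.7, 20.5, 17.3 and 21.3 CPM in GWCBD30LPS, against 11.3, 15.4, 15.3 and 14 CPM in GWVehLPS (0.49 ± 0.11, adjusted p = 0.048, edgeR). Both had non-overlapping groups, and each lost its call without GWCBD30LPS replicate 4 (adjusted p 0.209 for Rbm3 and 0.243 for Mir22hg). Mir22hg was the last gene inside the threshold, after Sult1a1 (0.0431), and Gm9522, Gm26788 and Selenop (adjusted p = 0.051 each) and Serpinh1 (0.0521) were the first outside it.

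Receptors and enzymes through which cannabinoids act gave no call. Among 19 endocannabinoid genes and 26 other proposed targets of cannabidiol none passed in either direction, and the medians were -0.03 and 0.04. The CB1 receptor Cnr1 had 200 ± 17.2 CPM in GWCBD30LPS and 204 ± 9.30 CPM in GWVehLPS (SD, n = 4 each; -0.03 ± 0.079, adjusted p = 0.976, edgeR). The CB2 receptor Cnr2, a gene of immune cells, had 20 counts in GWCBD30LPS and 50 counts in GWVehLPS over 4 libraries each, and its groups overlapped (-1.25 ± 0.55, adjusted p = 0.628, edgeR). The anandamide hydrolase Faah (-0.01 ± 0.056) and the monoacylglycerol lipase Mgll (0.05 ± 0.061) did not pass either. The nuclear receptor Pparg had 2.86, 2.88, 3.17 and 2.95 CPM in GWCBD30LPS, against 1.99, 2.28, 2.30 and 2.29 CPM in GWVehLPS, without overlap, and was not called (0.42 ± 0.22, adjusted p = 0.744, edgeR). The channel Trpv4 leaned the other way (-0.68 ± 0.17, adjusted p = 0.0996), while Trpv2 (0.16 ± 0.093, adjusted p = 0.788) and Gpr55 (0.15 ± 0.27, adjusted p = 0.969, edgeR) had small changes that did not pass.

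Markers of other cells moved with the groups in part. The 8 tested red blood cell genes summed to 397, 420, 399 and 545 CPM in GWCBD30LPS, against 275, 330, 303 and 379 CPM in GWVehLPS, so that every GWCBD30LPS library held more, and the list median was 0.65 with 8 of 8 values above 0 and none called. Neutrophil and monocyte genes had a median of -0.77 with none of 10 called, and their sums of 27.0, 29.2, 27.1 and 28.1 CPM in GWCBD30LPS lay within the GWVehLPS range of 24.3 to 40.8 CPM. S100a8 had 0.163, 0.147, 0.458 and 0.278 CPM in GWCBD30LPS, against 1.08, 0.473, 0.506 and 5.60 CPM in GWVehLPS, highest in replicate 4. The neutrophil genes Ly6g, Mpo and Elane were too low to test. Border-associated macrophage genes had none of 12 called, a median of -0.42, and sums of 59.1 to 68.7 CPM in GWCBD30LPS and 69.8 to 79.9 CPM in GWVehLPS, that is, without overlap. Choroid plexus genes (median -0.27), olfactory bulb genes (-0.27) and cerebellar genes (-0.18, 20 of 20 below 0) had none called, and their library sums overlapped between the groups. The part of blood content, dissection and macrophages at the brain border in the called genes was not tested beyond fits with tissue scores: with bulb and cerebellar scores as covariates 68 genes were lower, the 45 among them, and with the choroid plexus score 31 were.

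Promoters of the called genes were read for the letters of known immune and stress elements, since several sets of genes moved together. RefSeq promoters (GRCm38.p6, 250 bases before to 50 after each gene's start) matched 35 of the 45 lower genes by symbol. Motifs were searched on both strands and chosen with the called genes known. The interferon-stimulated response element (GAAA, any 2 bases, then GAAA) occurred in 6 of the 35 (17.1%), against 3.99% of all 27025 genes with a promoter. The 6 include Saa3, which entered the test only through GWVehLPS, the group in which it was high. The 10-letter NF-kB consensus occurred in 8 (22.9%), against 5.14%. The PU.1 core GAGGAAGT, bound by a master factor of myeloid cells, occurred in 5 (14.3%), against 3.69%. The endoplasmic reticulum stress element (CCAAT, any 9 bases, then CCACG) occurred in Calr and Hspa5 (5.7%), against 0.137%. A match is a run of letters and not evidence of binding. The 4 promoters below are shown because they carry these elements in genes from the Fc receptor, interferon, C1q and chaperone groups. They are written 5′ to 3′ on the gene's strand with the matches in capitals, and a match on the opposite strand appears as its reverse complement, as the PU.1 core does in Fcgr4 and C1qc. No matches overlapped.
Fcgr4: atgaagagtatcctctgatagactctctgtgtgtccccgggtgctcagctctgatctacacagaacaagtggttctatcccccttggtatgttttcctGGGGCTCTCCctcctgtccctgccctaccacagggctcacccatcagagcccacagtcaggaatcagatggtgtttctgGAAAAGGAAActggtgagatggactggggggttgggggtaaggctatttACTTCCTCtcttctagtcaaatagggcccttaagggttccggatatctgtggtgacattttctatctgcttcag
Ifitm3: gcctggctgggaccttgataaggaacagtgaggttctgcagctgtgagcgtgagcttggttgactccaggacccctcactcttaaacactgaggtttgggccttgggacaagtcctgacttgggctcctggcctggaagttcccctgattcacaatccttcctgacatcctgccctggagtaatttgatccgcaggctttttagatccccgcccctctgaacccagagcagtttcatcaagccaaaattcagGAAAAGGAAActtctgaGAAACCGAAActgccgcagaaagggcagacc
C1qc: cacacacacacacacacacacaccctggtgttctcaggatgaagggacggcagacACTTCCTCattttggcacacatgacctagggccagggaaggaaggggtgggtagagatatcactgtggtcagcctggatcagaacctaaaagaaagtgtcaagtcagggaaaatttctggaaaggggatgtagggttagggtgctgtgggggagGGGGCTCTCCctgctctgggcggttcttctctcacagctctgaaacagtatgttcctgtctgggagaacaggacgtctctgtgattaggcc
Hspa5: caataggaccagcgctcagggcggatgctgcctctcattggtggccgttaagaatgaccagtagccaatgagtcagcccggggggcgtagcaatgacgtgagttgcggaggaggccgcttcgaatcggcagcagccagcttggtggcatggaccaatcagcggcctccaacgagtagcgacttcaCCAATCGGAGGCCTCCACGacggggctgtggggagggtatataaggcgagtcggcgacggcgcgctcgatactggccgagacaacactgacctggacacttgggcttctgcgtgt

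The Fcgr4 window (chr1:171018676-171018975, plus strand) holds, in order, an NF-kB match, an interferon element and a PU.1 core, which begin at -152, -73 and -24 from the start. The Ifitm3 window (chr7:141010695-141010994, minus strand) holds 2 interferon elements just after the annotated start. In C1qc (chr4:136892865-136893164, minus strand) the PU.1 core begins at -195 and the NF-kB match at -41, and this NF-kB match has the same letters as the one in Fcgr4. The Hspa5 window (chr2:34771840-34772139, plus strand) has the stress element at -65. These positions count from the RefSeq start, which can differ from the gene coordinates used elsewhere in this report. By those coordinates the NF-kB match of C1qc and the stress element of Hspa5 lie inside the gene and not before it.

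Without LPS, cannabidiol gave no called gene in exposed brains. Between GWCBD30 and GWVeh 0 of 20026 genes passed in edgeR, DESeq2 or voom, 1288 (6.43%) had an unadjusted p under 0.05 in edgeR, and the smallest adjusted p was 0.752. The 45 genes that were lower with LPS had a median log2 fold change of -0.000366 without it, with 23 below and 22 above 0 and a range from -0.34 to 2.33. C1qa had 40.4, 39.3, 33.3 and 30.9 CPM in GWCBD30, against 39.7, 35.7, 39.0 and 30.4 CPM in GWVeh. The groups overlapped fully. Icam1 had 3.37, 2.40, 1.65 and 1.87 CPM in GWCBD30, against 2.43, 1.71, 1.86 and 1.92 CPM in GWVeh, with the highest library in GWCBD30. Saa3 and Fcgr4 had the largest values above 0 among the 45 without LPS, 2.33 and 2.08, at levels of 0.0462 to 0.337 CPM and 0.101 to 0.758 CPM in GWCBD30 and 0 to 0.0502 CPM and 0 to 0.201 CPM in GWVeh.

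The difference between the effect of cannabidiol with and without LPS was tested directly as an interaction. Of 20026 genes 9 passed, all with a more negative effect under LPS (0.0449%), and 1140 had an unadjusted p under 0.05. They were Fcgr3 (-1.17 ± 0.18 SE, adjusted p = 0.00612), Adgrl4 (-1.02 ± 0.17, adjusted p = 0.00734), Icam1 (-1.78 ± 0.30, adjusted p = 0.00904), C1qa (-0.66 ± 0.12, adjusted p = 0.0293), Olfml3 (-0.85 ± 0.16, adjusted p = 0.0293), Fcgr4 (-4.69 ± 0.89, adjusted p = 0.0293), Cd93 (-1.51 ± 0.29, adjusted p = 0.0363), Ifitm3 (-1.29 ± 0.25, adjusted p = 0.0402) and Pglyrp1 (-1.39 ± 0.28, adjusted p = 0.0471, edgeR). C1qb missed the threshold at -0.56 ± 0.12 (adjusted p = 0.0513, edgeR), as did C1qc (adjusted p = 0.0558). As 1 example, Fcgr3 had 8.07 ± 0.990 CPM in GWCBD30LPS and 15.3 ± 1.63 CPM in GWVehLPS. Without LPS it had 8.18 ± 1.05 CPM in GWCBD30 and 6.90 ± 1.19 CPM in GWVeh (SD, n = 4 each). Fcgr4 had another shape, since its difference also holds a higher value without LPS that did not pass (2.08 ± 0.67 SE, adjusted p = 0.752, edgeR). It had 0.491 ± 0.280 CPM in GWCBD30 and 0.117 ± 0.0937 CPM in GWVeh (SD, n = 4 each). The number of lower genes depended on the libraries, from 2 (without GWCBD30 replicate 1) to 14 (without GWCBD30LPS replicate 2), and was 3 without GWCBD30LPS replicate 4, GWVehLPS replicate 1, GWCBD30 replicate 2 or GWVeh replicate 2, 4 without GWVeh replicate 4 and 5 without GWVeh replicate 3. Without GWVehLPS replicate 2, 13 genes were lower and 4 were higher, and no gene was higher without any other 1 of the 16 libraries of these groups. Without the 3 libraries with raised bulb genes 2 genes were lower, 1 of them among the 9, and 1 gene was higher.

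**Figure D4:**
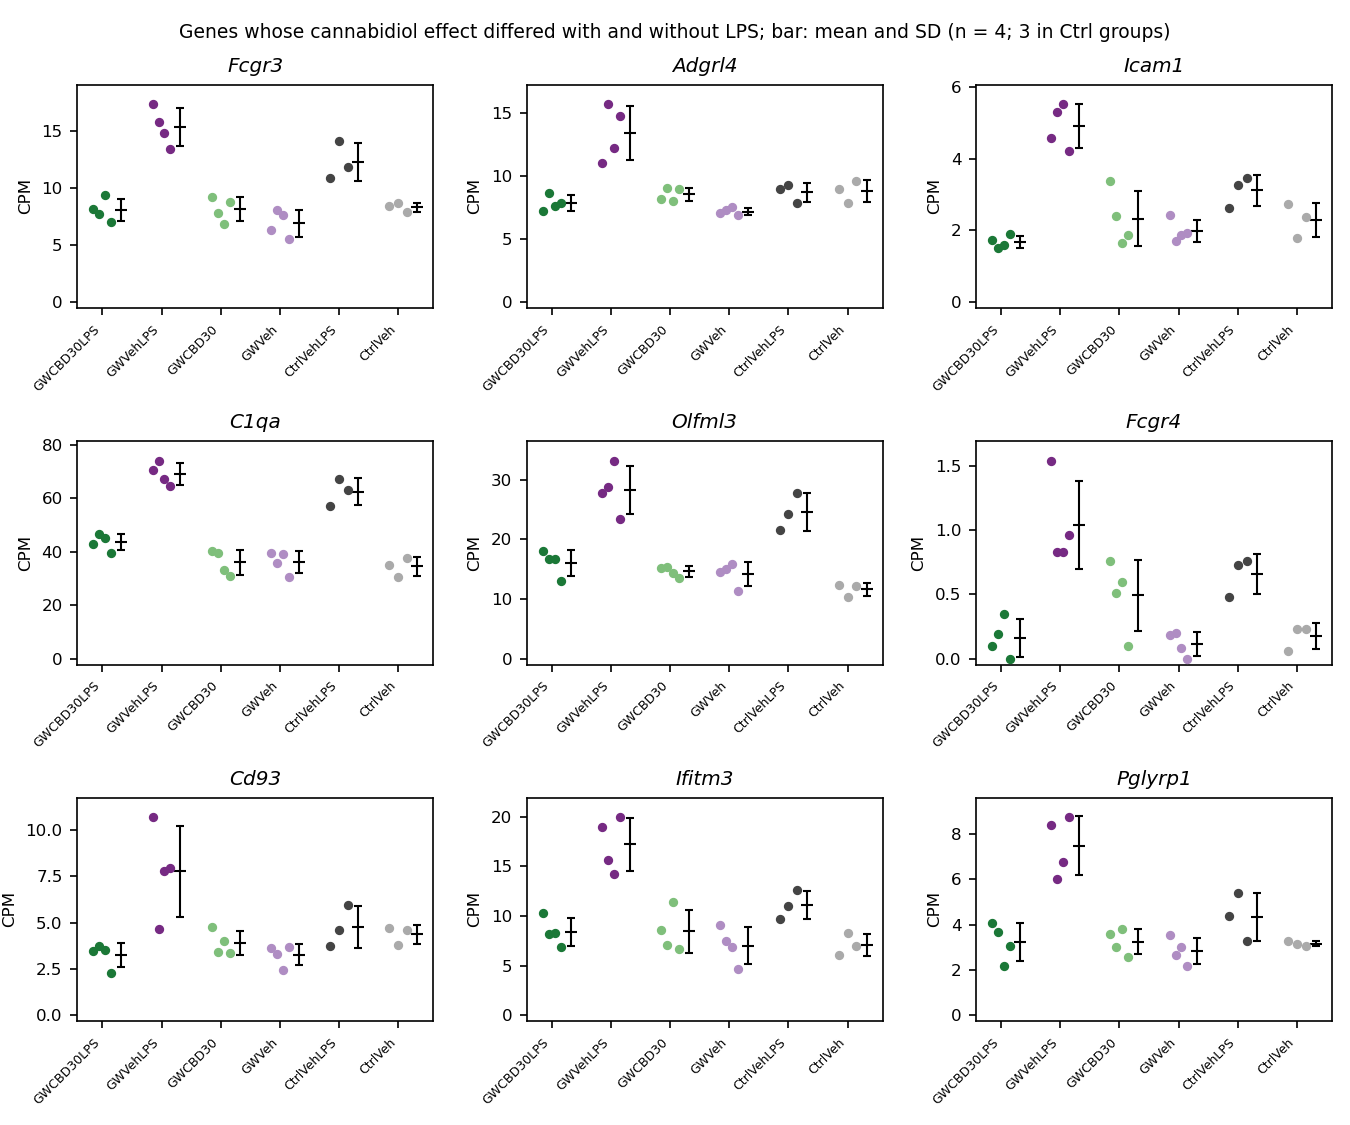
CPM in all 22 libraries for the 9 genes whose cannabidiol effect differed with and without LPS, by group, with mean and SD (n = 4, and 3 in the Ctrl groups). GWVehLPS lies above GWCBD30LPS in each panel, while GWCBD30 and GWVeh lie near each other except for Fcgr4, where GWCBD30 averages more than GWVeh.

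Genes that differ with LPS were also taken from mice outside this contrast. In control mice 83 genes were higher with LPS and 16 lower, called raised and lowered below (CtrlVehLPS against CtrlVeh, edgeR adjusted p under 0.05, 0.414% and 0.0799% of all genes). Of the 83 raised genes, 14 (16.9%) were lower in GWCBD30LPS than in GWVehLPS, against 0.225% of all genes, none was higher, 72 had a log2 fold change below 0 and the median was -0.19. Both comparisons share 1 estimate of the spread per gene, so a gene with a small spread passes more easily in both. The share over all genes is not matched for this. The 14 make up 31.1% of the 45 lower genes: C1qa, C1qb, C1qc, Olfml3, Ly86, Igfbp7, Fcrls, Ctss, Pdia4, Sdf2l1, Tmem119, Ly6e, Calr and Hspa5. Of the 16 lowered genes, 1 was higher in GWCBD30LPS, Rbm3, whose change with LPS in control mice was -0.49 (adjusted p = 0.0147, edgeR). All 3 CtrlVehLPS libraries had raised olfactory bulb genes (mean log2 CPM 2.80 to 3.66, against 1.53 to 1.66 in CtrlVeh). Of the 16 olfactory bulb neuron genes, 7 were among the 83, and the median of the 16 in this control contrast was 1.29. The 83 genes therefore hold bulb markers, and the part of bulb content in the rest was not tested. CtrlVehLPS replicate 1 also stood apart in its cerebellar genes (mean log2 CPM 3.41, against 6.45 and 6.54 in CtrlVehLPS replicates 2 and 3), and genes chosen without it were 56 raised and 6 lowered, of which 13 (23.2%) were lower and 1 was higher. Icam1, Lcn2 and the Fc receptors were not among the 83: their changes with LPS in control mice were 0.43 for Icam1, 1.47 for Lcn2, 0.56 for Fcgr3 and 0.64 for Fcgr2b, and none passed.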

How the data were processed

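Whole-brain poly(A) RNA of 22 mice was sequenced as stranded paired-end libraries with reads of 150 bp (RNA integrity number at least 8.5), per the labels' protocols. Alignment was to GRCm38 (mm10), per the submitters' processing notes. The aligner, the counter, its strand setting and the annotation used for counting are not stated in the labels or notes, so reads of overlapping or antisense genes cannot be told apart. The deposited table holds raw read counts for 56748 genes, not normalised by the authors. Of these identifiers, 52125 were found in GENCODE release 21 of the mouse annotation, from which the gene coordinates come.

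Counts were tested with edgeR 4.0.16 in R 4.3.3: filterByExpr by group left 20026 genes, libraries were scaled by TMM, and all 22 libraries entered 1 quasi-likelihood fit with a mean per group (16 residual degrees of freedom, common biological coefficient of variation 0.103). P-values were Benjamini-Hochberg adjusted over all 20026 genes, and a gene passed at an adjusted p under 0.05. The standard error is the absolute log2 fold change divided by the square root of F. CPM is the count over the TMM-scaled library size. Replicates are separate mice by the labels. No 2 libraries of a group agreed within sampling noise (chi-square per gene 3.85 to 20.3). Same-numbered libraries did not deviate together (correlations -0.0477 to 0.0279), so the numbers were not taken as pairs. The procedure was checked on simulated counts. Counting intervals for summed low counts are exact and cover counting error only.

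Genes named are the 12 largest changes that passed in each direction whose mean log2 CPM was 0 or more, the 10 smallest p in each direction, the 3 smallest p of each described list, a panel of receptors and markers, the 5 largest in the other comparisons and those next to the threshold. Other list members named were chosen after their values were seen. Members, lists and tests were chosen with earlier results of these data known. Alternatives were other scalings and filters, DESeq2 1.42.0, limma 3.58.1 voom with quality weights, surrogate variables with sva 3.50.0, tissue scores as covariates, a replicate block and leaving out libraries. Some genes that the naming rule selects are not reported here.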

Additional observations from a re-analysis of the deposited data

Results flagged for a closer look

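Some single libraries stood apart from the other 3 of their group. Pecam1 was lowest in GWCBD30LPS replicate 4 (8.67 CPM, against 10.1 to 10.4 CPM in the others). Saa3 was highest in GWCBD30LPS replicate 3 (0.420 CPM, against 0 to 0.0650 CPM). Sele was seen in GWCBD30LPS replicate 1 alone (0.0650 CPM, 0 in the others) and Selp in GWCBD30LPS replicate 2 alone (0.0489 CPM, 0 in the others), while in GWVehLPS Selp was highest in replicate 4 (1.01 CPM, against 0.551 to 0.598 CPM). In GWCBD30LPS the flags of Sele (2 counts) and Selp (1 count) were fixed by the zeros of the other libraries, whatever the size of the value. Both lie under the floor of 3 counts, and the rate below does not hold for them. Over the 98 gene and group sets looked at, 5 stood apart in this way, these included, and chance flags about 1 in 20, or 4.9.

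The effect of cannabidiol differed with and without LPS for 9 genes by the interaction test. The log2 difference was -0.66 for C1qa, -1.78 for Icam1, -1.17 for Fcgr3, -0.85 for Olfml3, -1.02 for Adgrl4, -1.39 for Pglyrp1, -1.51 for Cd93, -1.29 for Ifitm3 and -4.69 for Fcgr4. For Fcgr4 the counts were near the floor in GWCBD30LPS and GWVeh.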

How the results depend on the processing

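With LPS, the counts of higher and lower genes were 29 and 109 without a filter, 15 and 93 with DESeq2, 30 and 128 with voom, and 10 and 68 with bulb and cerebellar covariates, each including all 45 lower genes. A fit of the contrast groups alone gave 9 higher and 55 lower genes, with 37 of the 45 among the lower. With the choroid plexus score 2 were higher and 31 lower, with 1 of the original 3 and 30 of the 45 among them. The higher count was 9 at an adjusted p of 0.1 and 8 without CtrlVehLPS replicate 1. Leaving out 1 library gave 0 to 9 higher and 22 to 52 lower genes. Of the 48 calls, 21 were kept in every leave-one-out fit that tested them and 17 in every alternative that tested them. None changed sign. Sele counts among both, though it was tested in only 16 alternatives, against 22 for C1qa. It was not tested without GWVehLPS replicate 2, 3 or 4. For the difference, the higher and lower counts were 4 and 33 without a filter, 8 and 34 with voom and 1 and 19 with 1 surrogate variable. The lower count was 24 with DESeq2, 17 with the bulb and cerebellar covariates, 3 with the choroid plexus score, 21 at an adjusted p of 0.1 and 17 without CtrlVehLPS replicate 1. Without the 3 libraries with raised bulb genes it was 2, with 1 higher, and leave-one-out gave 0 to 4 higher and 2 to 14 lower. Without LPS no gene passed in any alternative. The cause of these changes was not tested.

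With the replicate number as a block, 5 genes were higher and 52 lower with LPS, and 15 passed in the difference, although the numbers do not pair the mice.

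Of 2842 values of named genes, 194 lost and 121 gained a call, and 29 changed sign, none of which passed the test. For Mbp the log2 fold change became 0.004751 with upper-quartile scaling, 0.002236 with a strict filter, 0.08696 with voom, 0.01248 with the replicate block, 0.02855 with the bulb and cerebellar covariates, 0.08874 with the choroid plexus score, 0.09852 with a surrogate variable and 0.09748 without the 3 libraries. Nfkbia became 0.02314 with voom and 0.007839 with the bulb and cerebellar covariates, which gave 0.01877 for Tlr4. Without the 3 libraries Omp became 0.09926 and Trem2 0.2287. Leave-one-out ranges crossed 0 for Mbp (-0.08305 to 0.09465), Nfkbia (-0.07041 to 0.08819), Trem2 (-0.1361 to 0.0681), Tlr4 (-0.3087 to 0.0138), Cnr1 (-0.07713 to 0.0195), Faah (-0.03865 to 0.02061) and Mgll (-0.01005 to 0.08025).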
